A study of Arabidopsis thaliana with 12 samples.

Results

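Leaves of Arabidopsis thaliana plants carrying the ago1-27 mutation were compared under water and in air, with both sets of plants kept in darkness. The comparison takes the 3 arrays labelled ago1-27 submerged minus the 3 labelled ago1-27 dark, 6 of the 12 arrays of the study, chosen by their labels alone. The other 6 arrays hold wild-type Col-0 leaves under the same treatments, 3 per group. Plants were 4 weeks old by the labels, were grown in soil in pots, and were covered for 12 h by water standing 10 cm above the leaves, or kept dark for the same time without submergence. Each replicate pooled 4 plants, so that differences between single plants are averaged within an array. The ago1-27 allele lowers the function of ARGONAUTE1 without abolishing it, and all 6 arrays of the comparison carry that label. The values are signals on Affymetrix ATH1 arrays, 1 per probe set, on a linear scale that sets the 2% trimmed mean of every array to 500.

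ARGONAUTE1 is the protein that loads most microRNAs of the plant and cuts or silences the transcripts they match, so a plant with a weak allele can accumulate microRNA targets. A submerged leaf in the dark can neither exchange gas freely nor photosynthesise. Within hours a wild-type plant usually turns on a small set of low-oxygen genes, which serve fermentation, sugar use and signalling, while growth and protein synthesis are reduced. Signals of whole leaves cannot tell fewer cells of a type from less RNA per cell.

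The low-oxygen genes were low in both ago1-27 groups. Of 53 genes listed, 26 were measured, and in 25 of these every ago1-27 array lay under every wild-type array, an order that 14.0% of all 14812 tested probe sets showed. The exception was AT3G10020, whose signals were 789, 703 and 608 submerged and 1497, 1406 and 1819 in the dark for ago1-27. Over the 26 genes the group means had a median signal of 195 in submerged ago1-27 (range 17.9 to 4083), 114 in ago1-27 in the dark (6.36 to 7144), 3910.0 in submerged wild type (263 to 26114) and 3666 in wild type in the dark (645 to 26336). Both ago1-27 groups thus lay far below both wild-type groups, whichever treatment the label gives.

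PDC2, a pyruvate decarboxylase of ethanol fermentation, had signals of 91.7, 128 and 236 in submerged ago1-27, against 140.0, 100.1 and 101 in ago1-27 in the dark, and 2231, 3304 and 2600.3 in submerged wild type, against 3357, 2376 and 2781 in wild type in the dark. The calcium sensor gene CML38 had signals of 29.7, 18.9 and 34.1 in submerged ago1-27, against 41.9, 34.3 and 36.4 in ago1-27 in the dark, and 4849, 4494 and 5114 in submerged wild type, against 3930.0, 4928 and 4377 in wild type in the dark. The ago1-27 arrays of both genes were low under either treatment label, those of CML38 all under the 40th percentile of their array, and the wild-type arrays were bright under either. The ago1-27 groups did not overlap for CML38, whose lower level was not called (adjusted p = 0.151) but was when the arrays were weighted (adjusted p = 0.0148), quantile-normalized (0.0402) or used without submerged ago1-27 replicate 3 and wild-type dark replicate 1 (0.0424). AT3G10040, the trihelix regulator HRA1, had signals of 53.3, 48.5 and 237 in submerged ago1-27, against 111, 61.3 and 111 in ago1-27 in the dark, and AT4G17260, the lactate dehydrogenase LDH1, 249, 229 and 761 in submerged ago1-27, against 341, 169.5 and 239 in ago1-27 in the dark. In both of these genes ago1-27 submerged replicate 3 was the highest of its group, and neither change was called (HRA1 log2 change -0.10 ± 0.48, adjusted p = 0.92, LDH1 log2 change 0.55 ± 0.42, adjusted p = 0.449; here and below log2 changes are submerged minus dark with the standard error of the fit). HRA1 was called lower when replicate 3 of submerged ago1-27 and replicate 1 of wild type in the dark were left out together (adjusted p = 0.0423).

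An exchange of group labels is therefore possible. If the arrays labelled ago1-27 submerged and those labelled wild type dark had been exchanged, the comparison described here would set wild type against ago1-27, both in the dark, and would be a genotype contrast. Signals, fold changes and tests would keep their values and only their meaning would change. A submergence effect and a genotype effect cannot be told apart from these arrays, and all groups below are named as the labels give them. Another set of values follows the labelled treatment in both genotypes. Under the exchange just described, the same values would instead part the arrays by genotype. The control probe set U12639, one of 64 controls on the array, had signals of 23.4, 9.31 and 23.6 in submerged ago1-27, against 26929.8, 27232 and 29111 in ago1-27 in the dark. In wild type it had 1.74, 44.7 and 6.07 submerged and 24471, 29779 and 29280.2 in the dark. The files give this probe set no gene name. AT3G55920, a cyclophilin gene, split the arrays the same way, with 315, 261 and 315 in submerged ago1-27, against 1.62, 1.85 and 2.7 in ago1-27 in the dark, and 270.4, 210.1 and 267 in submerged wild type, against 2.07, 1.96 and 2.64 in wild type in the dark.

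**Figure D1:**
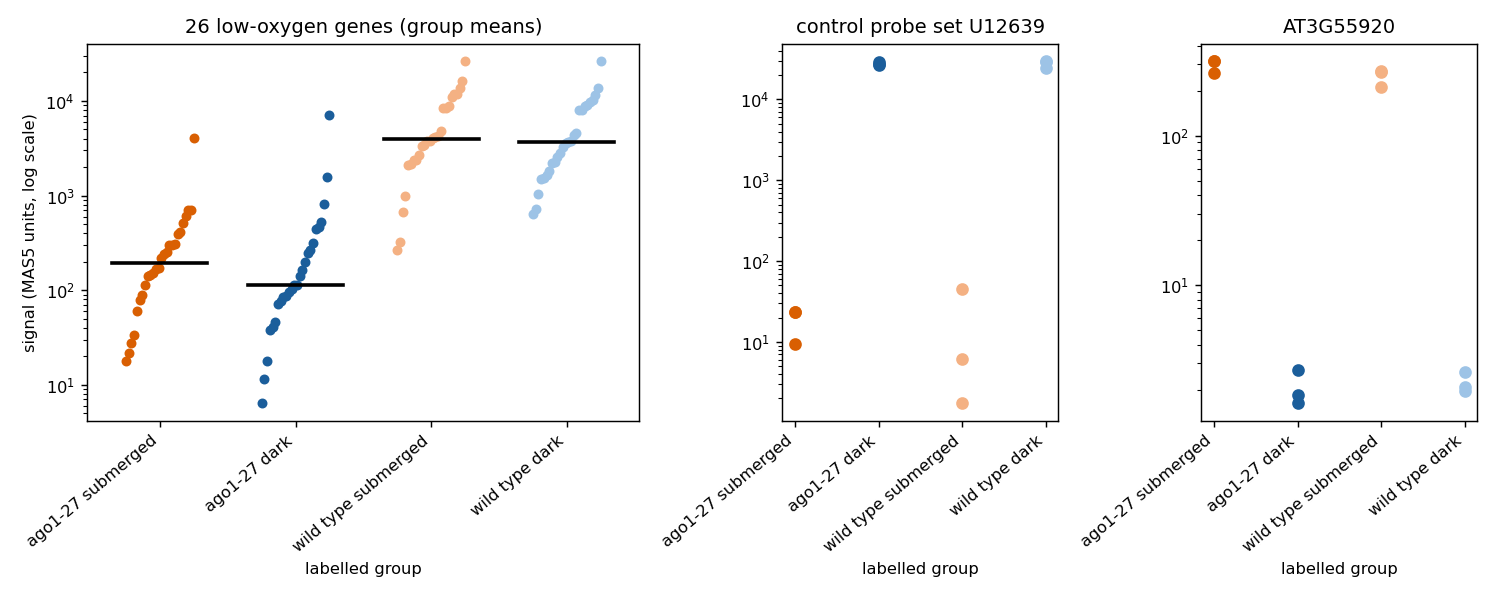
Signals (MAS5 units, log scale) of the 4 labelled groups. Left, mean signal of each of 26 low-oxygen genes per group, with the median as a bar: 195 and 114 in the ago1-27 groups, 3910.0 and 3666 in the wild-type groups. Centre and right, single arrays for the control probe set U12639 and for the cyclophilin gene AT3G55920, which part the arrays by labelled treatment in both genotypes.

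The arrays had a median signal of 134 to 207, and the 40th percentile of each array, 72.0 to 120, served as its low-signal limit. Replicate 3 of submerged ago1-27 and replicate 1 of wild type in the dark stood apart, with a standard deviation from their group means of 0.417 and 0.432 on the log2 scale over tested probe sets. The other arrays had 0.233 to 0.351. RNA signs moved with the comparison: the 3' to 5' signal ratio of the actin control was 11.4 ± 0.989 in submerged ago1-27 and 8.02 ± 0.860 in ago1-27 in the dark (SD, n = 3 each; two-sided exact permutation p = 0.1, the smallest that 20 splits allow). The control for 25S ribosomal RNA read 8322 ± 1698 in submerged ago1-27 and 15556 ± 839.7 in the dark (exact permutation p = 0.1), the ubiquitin ratio 3.27 ± 0.328 and 2.72 ± 0.197 (exact permutation p = 0.2), and the GAPDH ratio 1.97 ± 0.261 and 1.93 ± 0.270 (exact permutation p = 1). Their part in the results below was not tested. Of the markers, RCA, the activase of carbon fixation, had 29240.4 ± 2453 in submerged ago1-27 and 29421 ± 1336 in ago1-27 in the dark (SD, n = 3 each), among the brightest signals of the array, and the guard cell gene FAMA had a summed signal of 119 to 169 submerged and 83.0 to 131 in the dark. No flower, root or seed marker among 13 listed was tested, and 1 of 7 leaf and 1 of 4 guard cell markers were. The annotation names a probe set for only 1 leaf, 1 guard cell and 1 root marker and for no flower or seed marker. Their absence from the test therefore says nothing of the level of the unnamed ones.

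Of 14812 probe sets tested, 1241 (8.38%) were called, that is, had a Benjamini-Hochberg adjusted p under 0.05 in limma over all of them, and 3701 had an unadjusted p under 0.05. In submerged ago1-27 621 were higher (4.19%) and 620 lower (4.19%). Of the calls 405 changed at least 2-fold (2.73%), 207 higher (1.40%) and 198 lower (1.34%). The median log2 change over all tested probe sets was 0.06, and the middle 90% lay between -0.69 and 0.80. When the arrays were instead centred on their medians over all probe sets, that median was -0.10, and 28.7% of the calls were higher (358 higher, 891 lower) where 50.04% were as deposited, so the balance of rises and falls depends on scaling. The arrays of the 2 ago1-27 groups did not overlap for 33.7% of the tested probe sets, 18.4% with submerged higher and 15.3% with submerged lower. Among calls, 1237 of 1241 had no overlap, so a lack of overlap adds little to any call described below. Of the 1241 calls, 611 lie on probe sets that name 1 gene, 294 higher and 317 lower.

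Single arrays moved the count by more than 1.5 times. It was 346 without ago1-27 dark replicate 2, 362 without ago1-27 dark replicate 3, 685 without ago1-27 submerged replicate 2, 733 without ago1-27 submerged replicate 3 and 1862 without wild-type dark replicate 1. A set of 272 probe sets was called in the same direction under each of 24 alternative settings that tested it, 113 higher and 159 lower. Of these, 129 name 1 gene, 56 higher and 73 lower.

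**Figure D2:**
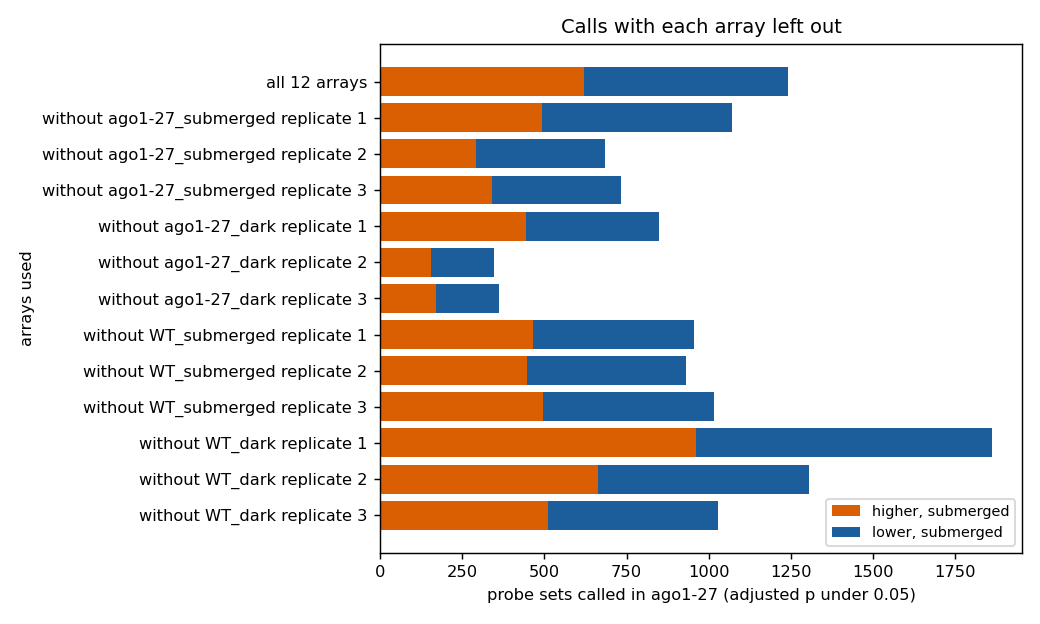
Number of probe sets called in ago1-27 (adjusted p under 0.05), split into higher (orange) and lower (blue) in submerged leaves, with all 12 arrays and with each array left out. The count is 1241 with all arrays, 346 without ago1-27 dark replicate 2 and 1862 without wild-type dark replicate 1.

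The genes that rose most in submerged ago1-27 were a cyclophilin, a methyltransferase of phosphocholine synthesis, cell wall and lectin genes, and several that the annotation names by locus only. AT3G55920 was at its high level on every submerged array and at the bottom of the scale on every dark one, as given above, and rose at least 3.3-fold (adjusted p = 0.00015). Where every array of a group was dimmer than its low-signal limit, the fold is a bound against that limit, and where both groups did, none is given. AT1G73600, a phosphoethanolamine methyltransferase gene, had signals of 1201, 1545 and 1316 in submerged ago1-27, against 184, 196 and 159 in ago1-27 in the dark. The groups lay far apart with little spread, and the gene rose 7.52-fold (log2 change 2.91 ± 0.22, adjusted p = 2.9e-05), the lowest p in the list of named genes. PMEAMT, another methyltransferase of the phosphocholine pathway, had 3287, 3535 and 2766 in submerged ago1-27, against 1467, 1813 and 1351 in ago1-27 in the dark. It rose 2.08-fold (log2 change 1.05 ± 0.16, adjusted p = 0.00305). Both measured genes of this pathway were higher on every submerged array, an order that 18.4% of all tested probe sets showed. The pair was grouped after its values were seen, so its count is no result about the pathway. Both kept their call under all 24 alternatives.

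AT1G19960 had signals of 1009.9, 1827 and 944 in submerged ago1-27, against 344, 99.4 and 285 in ago1-27 in the dark, and rose 5.63-fold (adjusted p = 0.00924). AT5G05960 had 1183, 1703 and 2961 in submerged ago1-27, against 460.3, 355 and 292 in ago1-27 in the dark, and rose 5-fold (adjusted p = 0.00886). In both, the submerged arrays were all higher than the dark ones, as the choice of the largest rises requires, though they spread widely among themselves. AT3G22240, a strong signal throughout, had 10757, 16599.6 and 7995 in submerged ago1-27, against 1587, 2661 and 2796 in ago1-27 in the dark (4.94-fold, log2 change 2.31 ± 0.25, adjusted p = 0.00051). Its wild-type arrays were high under either label, at 13026, 17499.8 and 14915 in submerged wild type, against 18820.4, 17748 and 18938 in wild type in the dark, so that the ago1-27 dark arrays were the low ones. AT1G27030 had 676, 795 and 1614 in submerged ago1-27, against 305, 128 and 257 in ago1-27 in the dark, and rose 4.42-fold (adjusted p = 0.00892). AT4G01390 had 282, 383 and 239 in submerged ago1-27, against 72.4, 60.6 and 11 in ago1-27 in the dark, and rose at least 3.3-fold (adjusted p = 0.0104). Those 5 genes kept their call under every alternative that tested them. AT3G48640 rose at least 1.19-fold (adjusted p = 0.013), with a call lost without ago1-27 submerged replicate 2 or ago1-27 dark replicate 2 (adjusted p up to 0.0653).

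Among the 15 largest rises by the fit, 4 had both groups under the low-signal limit, so no fold is given. AT2G20560 had 51.2, 59.4 and 59.7 in submerged ago1-27, against 5.67, 5.72 and 5 in ago1-27 in the dark. AT5G41680 had 38.9, 33.8 and 41.3 in submerged ago1-27, against 3.71, 2.73 and 5.65 in ago1-27 in the dark, and AT3G09480 64.6, 53 and 72.5 in submerged ago1-27, against 7.98, 5.51 and 13.7 in ago1-27 in the dark. Their submerged arrays were higher and did not overlap the dark ones, but with a floor at each array's 25th percentile none of these 3 was called (adjusted p = 0.21, 0.774 and 0.0716 in that order). AT3G28580 had 21.9, 28.6 and 26.1 in submerged ago1-27, against 3.29, 3.2 and 11.1 in ago1-27 in the dark. It lost its call under 11 of 23 alternatives (adjusted p up to 0.813).

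The largest falls included the orphan gene QQS, the calmodulin-like gene CML41, SAL2 of the SAL1 phosphatase family, and a carboxylesterase gene. AT1G76960 had signals of 68.3, 3.03 and 2.86 in submerged ago1-27, against 499, 465 and 558 in ago1-27 in the dark, and fell at least 5.08-fold (adjusted p = 0.00567), under every alternative. Submerged replicate 1 was the highest of its group by far, and the same was seen in QQS, AT1G12010, AT1G73490, AT5G63020 and AT3G29140. QQS, a gene found only in Arabidopsis and known for its effect on leaf starch and for a promoter whose methylation varies between strains, had 147, 6.08 and 2.66 in submerged ago1-27, against 375, 404 and 2544 in ago1-27 in the dark. The dark arrays differed among themselves nearly as widely, replicate 3 being the highest, and the fall (adjusted p = 0.0303) rests on few arrays: it was not called without a variance trend in the fit, or without any 1 of ago1-27 submerged replicate 2 or 3 or ago1-27 dark replicate 1, 2 or 3 (adjusted p up to 0.135). AT1G12010 had 107, 2.31 and 6.71 in submerged ago1-27, against 494, 628 and 680.2 in ago1-27 in the dark, a fall (adjusted p = 0.0117) that was lost without ago1-27 dark replicate 2 or 3 (adjusted p up to 0.058). Submerged replicates 2 and 3 of both genes were far under the low-signal limit, and with such arrays held at the limit the falls were 6.19-fold for QQS and 5.62-fold for AT1G12010.

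AT5G63020 had 106, 39.5 and 9.22 in submerged ago1-27, against 296, 393 and 423 in ago1-27 in the dark (adjusted p = 0.00817), and AT1G73490 had 425, 57.5 and 112 in submerged ago1-27, against 1322, 991 and 1222 in ago1-27 in the dark (adjusted p = 0.00846). They were 3.48-fold and 6.98-fold lower with their 2 dim submerged arrays held at the limit. Both kept their call under every alternative. CML41, a calmodulin-like protein known from the leaf's response to pathogens, had 172, 180.0 and 103 in submerged ago1-27, against 699, 982 and 991 in ago1-27 in the dark. The submerged arrays lay well under the dark ones (5.98-fold lower, log2 change -2.58 ± 0.27, adjusted p = 0.00047). With the dim submerged replicate 3 held at the limit, CML41 was 5.67-fold lower. SAL2 had 133, 208 and 56.1 in submerged ago1-27, against 449, 668 and 859 in ago1-27 in the dark (4.26-fold lower with the dim submerged replicate 3 held at the limit, adjusted p = 0.00924), a call lost without ago1-27 dark replicate 3 (adjusted p up to 0.0527). AT1G72060 had 526, 547 and 166 in submerged ago1-27, against 1935, 2116 and 2842 in ago1-27 in the dark (6.24-fold lower, adjusted p = 0.00297), and AT3G07350 had 846, 556 and 515 in submerged ago1-27, against 2664, 3179 and 3605 in ago1-27 in the dark (5.01-fold lower, adjusted p = 0.00061). In both, the call held under all 24 alternatives, and every dark array was above every submerged one, as the choice of the largest falls requires. CXE20, a carboxylesterase gene, had 4.08, 10.7 and 13.6 in submerged ago1-27, against 78.1, 113 and 110.2 in ago1-27 in the dark, and its submerged arrays and dark replicate 1 lay under the low-signal limit. With the submerged signals held at that limit the order of the groups is not kept, so no fold is given.

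AT3G28220 had 481, 217 and 105 in submerged ago1-27, against 1460.5, 1789.8 and 1251 in ago1-27 in the dark (6.68-fold lower, adjusted p = 0.00999). With its dim submerged replicate 3 held at the limit it was 6.39-fold lower, and its call was lost without ago1-27 dark replicate 2 (adjusted p up to 0.0591). It was near the bottom of the scale on all wild-type arrays, at 23.4, 14.6 and 9.46 in submerged wild type, against 5.81, 14.7 and 12.3 in wild type in the dark. Of the remaining named falls, AT3G29120 fell at least 2.13-fold, AT1G10160 at least 1.69-fold, AT4G17470 at least 1.42-fold and AT3G29140 at least 1.22-fold. All 4 lost their call without 1 or more ago1-27 dark arrays (highest adjusted p over the alternatives 0.114, 0.115, 0.17 and 0.11), and AT4G17470 was lost under 13 of 23 alternatives.

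**Figure D3:**
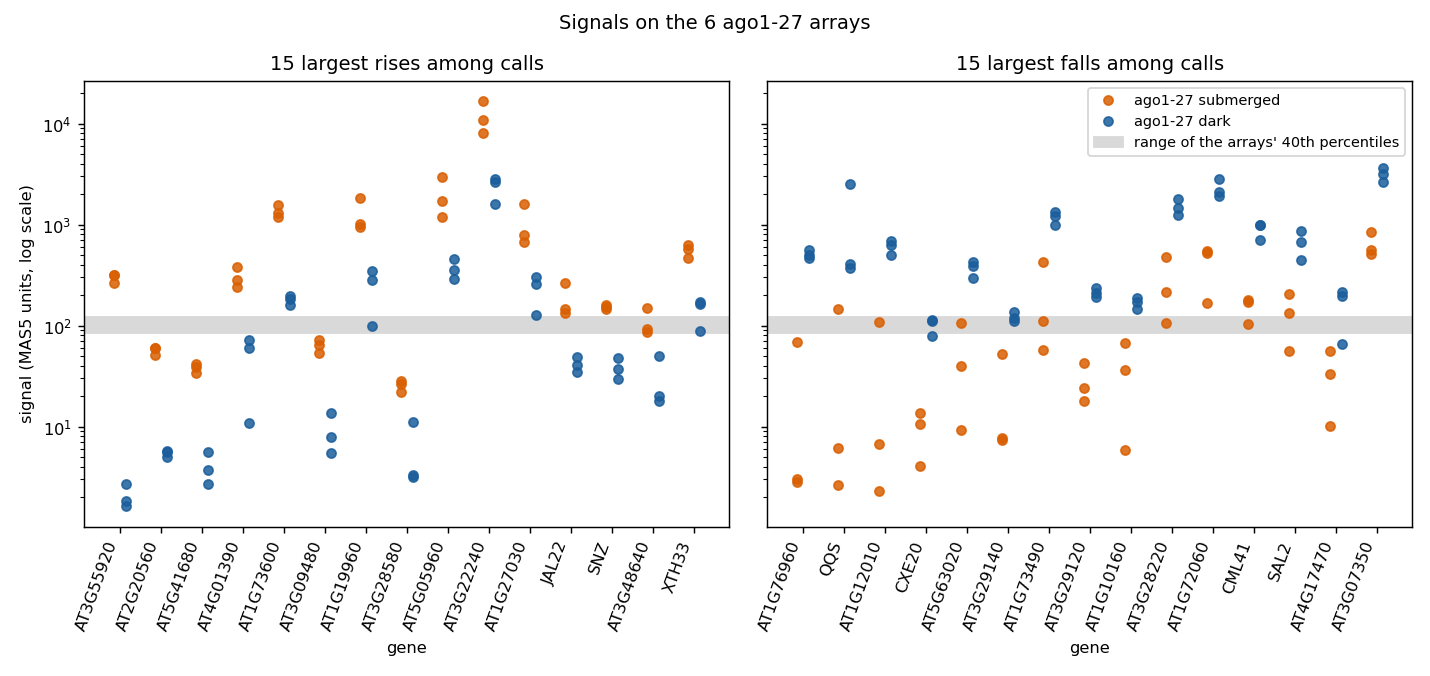
Signals (MAS5 units, log scale) of the 15 largest rises and the 15 largest falls among calls that name 1 gene, on the 3 submerged (orange) and the 3 dark (blue) ago1-27 arrays. The grey band is the range of the 6 arrays' 40th percentiles. Groups do not overlap for any gene shown, as the choice requires, and points under the band are too dim for a fold.

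Cell wall growth genes were among the lists with the highest median. Counts of this list and of those below stand beside 8.38% called over all tested probe sets, 4.19% higher and 4.19% lower. Most lists are short, and no list was tested as a set. Of 15 xyloglucan enzymes and expansins measured, 3 rose, 0 fell and 12 were not called, with a median log2 change of 0.94, or 0.66 with dim members held at the limit, where all tested probe sets had 0.06. XTH33, an enzyme that cuts and joins xyloglucan chains, had 624, 573 and 462 in submerged ago1-27, against 165, 89.1 and 170.4 in ago1-27 in the dark (4.04-fold, log2 change 2.02 ± 0.25, adjusted p = 0.00105). The expansin-like gene EXLB1 had 463, 583 and 504 in submerged ago1-27, against 150.1, 163 and 92 in ago1-27 in the dark (3.92-fold, log2 change 1.97 ± 0.27, adjusted p = 0.00147). Submerged arrays of both genes were all above the dark ones, and both calls held under all 24 alternatives. EXLA1 had 326, 252 and 206 in submerged ago1-27, against 71.6, 91.3 and 115 in ago1-27 in the dark (adjusted p = 0.0232), a call lost without any 1 of 5 ago1-27 arrays, all but submerged replicate 3, and after centring on all probe sets (adjusted p up to 0.0808). EXPB3, a beta-expansin not called, had 656, 634 and 3479 in submerged ago1-27, against 663, 259 and 539 in ago1-27 in the dark (log2 change 1.32 ± 0.58, adjusted p = 0.178), and EXPA9 had the lowest change of the list (-0.55). The list's median was 0.49 without submerged replicate 3.

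The cytoskeleton and chromatin genes were mixed. Of 8 tubulins and actins, 3 rose, 1 fell and 4 were not called (median log2 change 0.48). TUB1, a beta-tubulin, had 758, 700.5 and 776 in submerged ago1-27, against 312, 201 and 306 in ago1-27 in the dark (2.78-fold, log2 change 1.47 ± 0.28, adjusted p = 0.00924). TUA6 and TUB9 rose by less, 0.53 and 0.43 on the log2 scale. Their calls were the less stable: with centring on all probe sets neither was called (adjusted p = 0.0548 for TUA6 and 0.163 for TUB9). Leaving out 1 ago1-27 array also ended them, dark replicate 1, 2 or 3 or submerged replicate 3 for both, and submerged replicate 1 or 2 for TUB9. The highest adjusted p so reached was 0.141 for TUA6 and 0.129 for TUB9. TUB1 was lost without ago1-27 dark replicate 2 (adjusted p = 0.0515). TUA1, an alpha-tubulin, had 1079, 911 and 768 in submerged ago1-27, against 1468, 1512 and 1527 in ago1-27 in the dark, a fall called in every alternative (log2 change -0.72 ± 0.13, adjusted p = 0.00834). In the histone H2B list, chosen after values were seen, 2 of 4 rose, HTB1 with 729, 891 and 1619 in submerged ago1-27, against 361, 272 and 377 in ago1-27 in the dark (log2 change 1.61 ± 0.31, adjusted p = 0.00926) and HTB11 (log2 change 0.72 ± 0.18, adjusted p = 0.0304). Of 3 Aurora kinases of cell division none was called. AUR2 had 135, 125 and 355 in submerged ago1-27, against 126, 41.6 and 76.5 in ago1-27 in the dark, and the groups overlapped.

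Jacalin-like lectins, sugar-binding proteins of leaf defence, had the highest median of all lists with 3 or more genes, 1.22, or 0.71 with dim members at the limit. JAL22 was the 1 of 4 called, with 133, 147 and 266 in submerged ago1-27, against 41.2, 35.1 and 48.6 in ago1-27 in the dark, a rise of at least 1.94-fold (adjusted p = 0.00922). JAL33 had 76.8, 101 and 344 in submerged ago1-27, against 41.7, 34.4 and 57.3 in ago1-27 in the dark and was not called (adjusted p = 0.0687).

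MicroRNA targets moved in both directions. Of 72 listed, 8 were measured, 1 rose, 2 fell and 5 were not called (median log2 change 0.21). AGL16, a MADS-box gene cut by miR824 that shapes stomata and flowering, had 344, 374 and 254 in submerged ago1-27, against 987, 1066 and 1039 in ago1-27 in the dark. The dark arrays were tightly grouped and all well above the submerged ones (3.22-fold lower, log2 change -1.69 ± 0.16, adjusted p = 0.00022). CCS, the copper chaperone of superoxide dismutase and a target of miR398, had 1182, 1197 and 1048 in submerged ago1-27, against 3276, 3081 and 3250.2 in ago1-27 in the dark (2.81-fold lower, log2 change -1.49 ± 0.29, adjusted p = 0.00958). Both calls held under all 24 alternatives. SNZ, a floral repressor regulated by miR172, had 160.0, 154 and 146 in submerged ago1-27, against 36.8, 47.9 and 29.3 in ago1-27 in the dark, a rise of at least 1.71-fold (adjusted p = 0.0221). It was lost without any 1 of the 6 ago1-27 arrays (adjusted p up to 0.0924).

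AT3G15640, also a miR398 target, had 1696, 1486 and 1994 in submerged ago1-27, against 2133, 1704 and 1942 in ago1-27 in the dark (log2 change -0.16 ± 0.20, adjusted p = 0.653). Its groups overlapped, where those of CCS did not. APS3 and APS4, ATP sulfurylases targeted by miR395, had log2 changes of 0.76 and 0.36 (adjusted p = 0.262 and 0.187). PHV, a leaf polarity gene under miR166, had 539, 602 and 950.2 in submerged ago1-27, against 436, 352 and 523 in ago1-27 in the dark (log2 change 0.65 ± 0.22, adjusted p = 0.0887), and LCR, a miR394 target, 687, 771 and 878 in submerged ago1-27, against 749, 791 and 694 in ago1-27 in the dark (log2 change 0.06 ± 0.14, adjusted p = 0.824). APS3 was called under 4 alternatives: without wild-type dark replicate 1 (adjusted p = 0.0266), with array weights (0.0204), from the 6 ago1-27 arrays alone (0.0334) and without the 2 arrays that stand apart (0.0189).

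Of 5 genes listed for silencing, 1 rose, 1 fell and 3 were not called. NRPB7, a subunit of RNA polymerase II, had 374, 444 and 519 in submerged ago1-27, against 225, 212 and 204 in ago1-27 in the dark (2.07-fold, log2 change 1.05 ± 0.17, adjusted p = 0.004), all submerged arrays being higher. TGH, which promotes the processing of microRNA precursors, had 316, 261 and 285 in submerged ago1-27, against 479, 446 and 513 in ago1-27 in the dark (log2 change -0.74 ± 0.21, adjusted p = 0.0479). No arrays overlapped, but the call was lost under 13 alternatives, with each ago1-27 array among them (adjusted p up to 0.159). SE, the zinc finger partner of that processing, had 213, 254 and 291 in submerged ago1-27, against 247, 254 and 258 in ago1-27 in the dark (log2 change -0.01 ± 0.16, adjusted p = 0.972). AT1G50920 and RAPTOR2 had log2 changes of 0.28 and 0.53 and were not called. RAPTOR2 is known as a partner of the growth kinase TOR. With it and NRPB7 as members, the count of this list does not describe silencing alone.

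Genes that mark darkness and carbon starvation gave falls and no rise in submerged ago1-27. Of 9 measured, 3 fell and 6 were not called, where 4.19% of all tested probe sets were called lower. The list's median log2 change was -0.44 in ago1-27. In the same contrast in wild type it was 0.02, and 1 member was called. AT5G57655 had 556, 564 and 579 in submerged ago1-27, against 1379.6, 1760.0 and 1320.3 in ago1-27 in the dark. The submerged arrays were almost equal and all were far under the dark ones (2.6-fold lower, log2 change -1.38 ± 0.15, adjusted p = 0.00055), in every alternative. AKINBETA1, a regulatory subunit of the energy sensor SnRK1, had 3197, 2581 and 1880.1 in submerged ago1-27, against 4696, 5433 and 4890.1 in ago1-27 in the dark (2-fold lower, adjusted p = 0.014), a call lost without ago1-27 dark replicate 2 or 3 (adjusted p up to 0.0682). AT2G05540 had 559.5, 516 and 474 in submerged ago1-27, against 793, 915 and 889 in ago1-27 in the dark (log2 change -0.75 ± 0.18, adjusted p = 0.0234). It was lost without ago1-27 submerged replicate 2 or 3 or dark replicate 2 or 3 (adjusted p up to 0.0991). Autophagy genes, which recycle cell contents in starved leaves, were not called in any of 8 cases (median -0.21).

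Sugar and starch genes gave 3 falls and 0 rises among 20, where 8.38% of all tested probe sets were called. Of 9 sugar transporters SWEET11, a sucrose exporter of the phloem parenchyma, fell, with 4661, 4964 and 3428 in submerged ago1-27, against 6901, 7315 and 7003 in ago1-27 in the dark (log2 change -0.72 ± 0.16, adjusted p = 0.0207). The call was lost without ago1-27 submerged replicate 3 or dark replicate 2 or 3 (adjusted p up to 0.0849). Of 11 starch and sugar phosphate genes, grouped after values were seen, 2 fell and 0 rose. PWD, a dikinase that phosphorylates starch for breakdown, had 564, 623 and 604 in submerged ago1-27, against 1150.3, 1229 and 1128 in ago1-27 in the dark (log2 change -0.97 ± 0.12, adjusted p = 0.00116), and F2KP, which sets the signal metabolite fructose-2,6-bisphosphate, fell by 0.60 on the log2 scale (adjusted p = 0.0426). A second locus called PWD had 225 in submerged ago1-27 and 177 in the dark on average and was not called. Of 5 genes of pyrimidine and allantoin metabolism, also grouped late, 3 rose and 0 fell. ALN, allantoinase of purine breakdown, had 768, 843 and 579 in submerged ago1-27, against 269, 296 and 234 in ago1-27 in the dark (2.72-fold, log2 change 1.44 ± 0.16, adjusted p = 0.00055). UPP, which salvages uracil, and PYRB, of pyrimidine synthesis, rose by 0.91 and 0.71 (adjusted p = 0.0057 and 0.044). ALN and UPP kept their call under every alternative.

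Cold and abscisic acid genes gave 2 falls and 0 rises among 5. COR15B, a chloroplast protein of cold protection, had 92.5, 125 and 151 in submerged ago1-27, against 465, 448 and 412 in ago1-27 in the dark (3.66-fold lower, log2 change -1.87 ± 0.19, adjusted p = 0.00034), and COR27 had 68.6, 85.9 and 44.6 in submerged ago1-27, against 222, 249.8 and 254 in ago1-27 in the dark (at least 2.43-fold lower, adjusted p = 0.00116). Both held under all 24 alternatives, and no array of either gene crossed to the other group. COR15A, the close relative of COR15B, was not called (log2 change 0.23 ± 0.24, adjusted p = 0.586), nor were COR47 (-0.27) and RD2 (0.74). Probe sets of such close copies can share transcripts, so the split between them is uncertain.

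Defence and redox genes had single falls. WRKY53, a transcription factor of leaf senescence, had 167, 232 and 95.4 in submerged ago1-27, against 290.5, 426 and 530.1 in ago1-27 in the dark (log2 change -1.38 ± 0.31, adjusted p = 0.0179), a call lost without ago1-27 dark replicate 2 or 3 (adjusted p up to 0.0909), and the other 4 WRKY genes were not called (list median -0.66). The glutaredoxin gene GRXC1 had 531, 328 and 269 in submerged ago1-27, against 1197, 1468 and 1356 in ago1-27 in the dark (3.71-fold lower, log2 change -1.89 ± 0.23, adjusted p = 0.00093) in every alternative, and the other 5 genes of the thioredoxin and peroxidase list were not called. AT3G28540, 1 of 2 salicylic acid genes measured, fell 2.85-fold with its 1 dim submerged array held at the limit (adjusted p = 0.0185), a call lost without ago1-27 submerged replicate 3 or dark replicate 2 or 3 (adjusted p up to 0.0885). In the ascorbate list, grouped after values were seen, VTC4, a phosphatase of ascorbate synthesis, had 1016, 1098 and 1313 in submerged ago1-27, against 598, 600.0 and 486 in ago1-27 in the dark (log2 change 1.02 ± 0.18, adjusted p = 0.0076), SAPX, an ascorbate peroxidase of the chloroplast stroma, rose by 0.90, and GME, an epimerase earlier in the pathway, fell by 0.59 on the log2 scale. The 2 others were not called.

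Chaperones, grouped after values were seen, gave 3 rises and 1 fall among 11. Hop2, a link between HSP70 and HSP90 chaperones, had 695, 728 and 892 in submerged ago1-27, against 354, 324 and 346 in ago1-27 in the dark (log2 change 1.17 ± 0.19, adjusted p = 0.00488) and kept its call throughout. In wild type its log2 change was -0.69, and the difference between the genotypes was called (1.86 ± 0.27, adjusted p = 0.0157). Hsp70-2 and the plastid chaperonin Cpn60beta2 rose by 0.92 and 0.83, and Fes1C, an exchange factor of HSP70, fell by 0.81 on the log2 scale. Calls of the last 3 were lost under at least 1 alternative. Of 9 MADS-box genes AGL16 and AGL42 fell, AGL42 with 53.3, 70.7 and 204 in submerged ago1-27, against 414, 482 and 436 in ago1-27 in the dark (adjusted p = 0.00488, submerged replicates 1 and 2 being under the low-signal limit), while AGL19 (-0.78) and the other 6 were not called.

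Large enzyme families had calls at shares near the 8.38% of all tested probe sets: 1 of 14 cytochrome P450 genes, 3 of 26 UDP glycosyltransferases and 1 of 8 aldehyde dehydrogenases. Of the cytochrome P450 genes CYP71B22 fell, with 296, 264 and 288 in submerged ago1-27, against 1092, 1169.9 and 866 in ago1-27 in the dark (3.66-fold lower, log2 change -1.87 ± 0.20, adjusted p = 0.00051), under every alternative. Of the UDP glycosyltransferases UGT72E1, which glucosylates lignin precursors, rose with 730.5, 852 and 529 in submerged ago1-27, against 269, 340.2 and 292 in ago1-27 in the dark (log2 change 1.21 ± 0.24, adjusted p = 0.0116), a call lost without ago1-27 dark replicate 3 (adjusted p up to 0.053). UGT84A3, a glucosyltransferase of hydroxycinnamic acids, fell by 0.70 (lost without ago1-27 dark replicate 2 or 3, adjusted p up to 0.0799), and UGT78D2, of flavonols and anthocyanins, by 0.51 on the log2 scale (adjusted p = 0.0493). UGT78D2 was lost under 14 alternatives, without any 1 of the 6 ago1-27 arrays among them, and the other 2 anthocyanin genes were not called. ALDH10A9, 1 of 8 aldehyde dehydrogenases, fell by 0.48 (adjusted p = 0.039), lost under 11 alternatives (0.164 at most). None was called among 7 glutathione transferases (median -0.34), 12 sulfate and glucosinolate genes (0.09), 6 auxin genes (-0.22), 6 other cell wall enzymes (0.11) and 3 gibberellin receptors (-0.47).

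None of 7 photosynthesis genes of the nucleus was called, and their log2 changes ran from -0.31 to 0.15 with a median of 0.08. LHCB4.1, an antenna protein of photosystem II, had 26146, 24135 and 19727 in submerged ago1-27, against 20512, 22853 and 20820.0 in ago1-27 in the dark (log2 change 0.12 ± 0.11, adjusted p = 0.549). Plastid-encoded genes, grouped after values were seen, had a median log2 change of -0.38 over 66 probe sets, and 2 of the 66 were above 0. That median was as large as its standard deviation over the 3 submerged arrays (0.38), and ran from -0.59 without submerged replicate 1 to -0.19 without submerged replicate 3. Of the 66, 3 fell and 0 rose, where 4.19% of all tested probe sets were called lower and 4.19% higher. petN, a subunit of the cytochrome b6f complex, had 284, 222 and 272 in submerged ago1-27, against 381, 391 and 443 in ago1-27 in the dark (log2 change -0.65 ± 0.17, adjusted p = 0.037), accD, of fatty acid synthesis, fell by 0.90, and rps2, a plastid ribosomal protein, had 2095, 1130.2 and 791 in submerged ago1-27, against 2442, 2575 and 2526 in ago1-27 in the dark (log2 change -1.03 ± 0.28, adjusted p = 0.0414). The 25S control was lower in the same arrays, as given above, and its part in this was not tested.

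**Figure D4:**
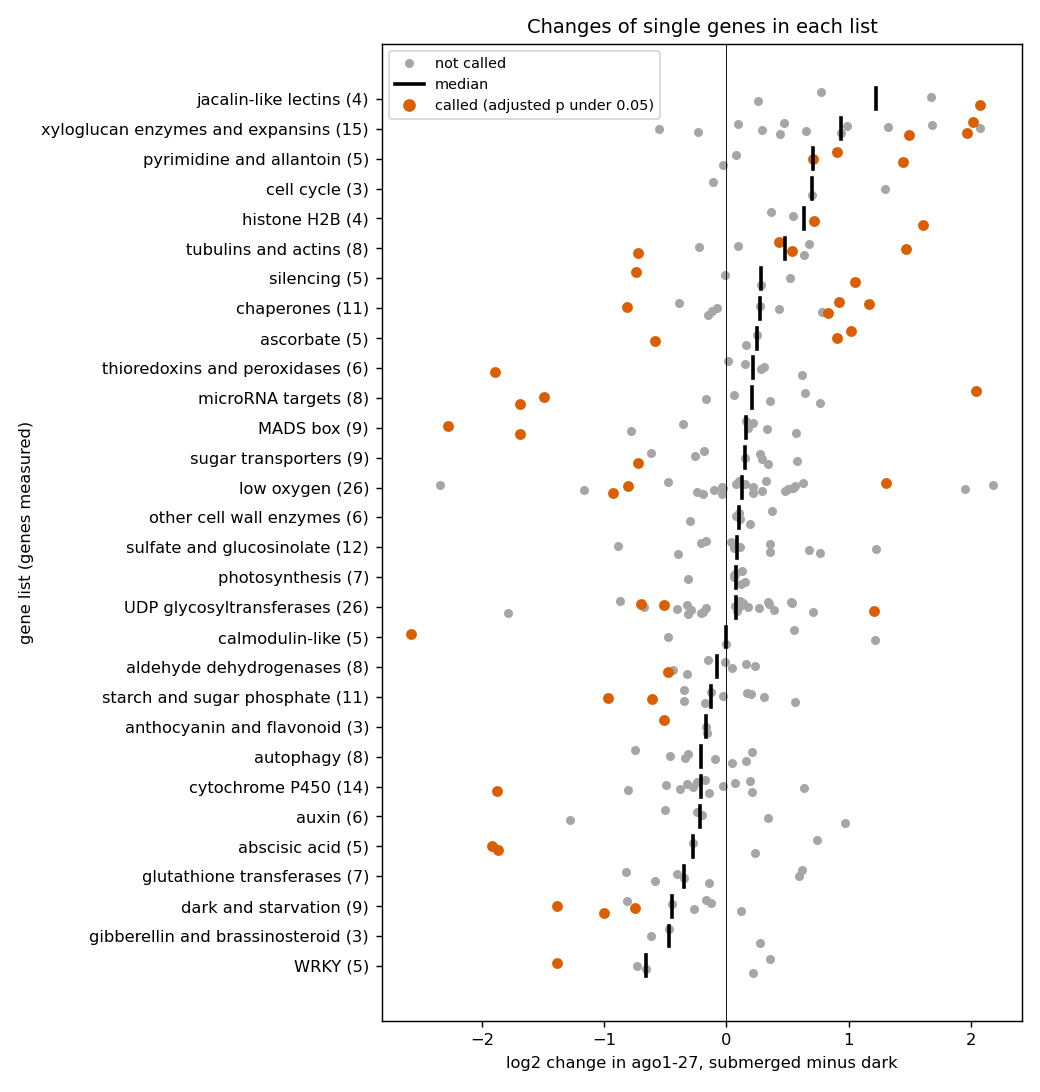
Log2 change (ago1-27, submerged minus dark) of each measured gene, by list, with the number of genes in brackets; orange points were called, grey points were not, and the bar is the list's median. Lists of under 3 genes and the plastid-encoded genes are not drawn. Medians of those drawn run from -0.66 (WRKY) to 1.22 (jacalin-like lectins), and most members of most lists were not called.

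Of the low-oxygen list itself, 1 of 26 rose, 2 fell and 23 were not called (median log2 change 0.13). Over all tested probe sets 8.38% were called, 4.19% higher and 4.19% lower. AT5G47060 had 209.6, 224 and 463 in submerged ago1-27, against 129, 90.6 and 122 in ago1-27 in the dark, a rise of 2.48-fold (adjusted p = 0.0128) that was lost without ago1-27 dark replicate 2 (adjusted p up to 0.0684). AT4G27450, the strongest signal of the list in ago1-27, had 4463, 3545 and 4239 in submerged ago1-27, against 6117, 7302 and 8013 in ago1-27 in the dark (1.75-fold lower, log2 change -0.81 ± 0.12, adjusted p = 0.00305), a fall under every alternative. AT1G33055 had 307, 148 and 308 in submerged ago1-27, against 473, 405 and 502 in ago1-27 in the dark (log2 change -0.92 ± 0.22, adjusted p = 0.0269), lost without any 1 of the ago1-27 dark arrays (adjusted p up to 0.111). AT3G10020, whose signals are given above, was lower on every submerged array and not called (log2 change -1.17 ± 0.42, adjusted p = 0.106), but was called from the 6 ago1-27 arrays alone (0.00727), with array weights (0.0412) and without wild-type dark replicate 3 (0.0317). AT5G42200 had 165, 166 and 185 in submerged ago1-27, against 169, 186 and 135 in ago1-27 in the dark (log2 change 0.08 ± 0.24, adjusted p = 0.864). The list's median changed sign with the arrays used, from -0.32 with array weights to 0.38 without submerged replicate 2.

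The same contrast in wild type gave 1048 calls (7.08%). Of the ago1-27 calls 24.0% were also called in wild type, and in 80.98% the wild-type change had the same sign, which held for 62.38% of all tested probe sets. AT3G55920 (at least 3.21-fold higher in wild type), XTH33 (2.04 on the log2 scale), ALN (1.35), COR15B (-1.62), GRXC1 (-1.53), AT3G07350 (-2.46), AGL16 (-1.05) and CCS (-1.29) had calls of 1 direction in ago1-27 and wild type. The genotypes share no arrays in these contrasts but share 1 estimate of the spread. Under the exchange of labels described above, both contrasts would be wild type minus ago1-27. A shared direction would then be one of genotype, and these arrays cannot tell the readings apart. The difference between the genotypes' changes was called for 42 probe sets (0.284%), 21 in each direction, and 2187 had an unadjusted p under 0.05. That difference keeps its value under the exchange of labels described above. It adds both of the groups that would be exchanged and subtracts the other 2. The change within each genotype would be taken between other groups, so the directions given below hold only for the labels as given. Under the exchange, AT2G05540 would be lower with submergence in both genotypes and FHL higher in both.

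Of the 42, 25 were also called in ago1-27 and 22 name 1 gene. AT1G73600 rose more in ago1-27 than in wild type, where it had 601, 557 and 962 in submerged wild type, against 308, 426 and 476 in wild type in the dark (difference of log2 changes 2.12 ± 0.31, adjusted p = 0.0157). AT3G22240 changed in ago1-27 and not to a called degree in wild type (difference 2.60 ± 0.36, adjusted p = 0.0145). By the labels AT2G05540 fell in ago1-27 and rose in wild type, with 298, 405 and 314 in submerged wild type, against 126, 157 and 103 in wild type in the dark (difference -2.15 ± 0.25, adjusted p = 0.0129). FHL, which carries the light receptor phytochrome A into the nucleus, had 92.4, 79.1 and 97.8 in submerged ago1-27, against 66.8, 106 and 81 in ago1-27 in the dark, and 263, 234 and 291 in submerged wild type, against 902, 1068 and 1119.5 in wild type in the dark (difference 2.08 ± 0.27, adjusted p = 0.0145). The wild-type dark arrays were the high ones for FHL, and the other 3 groups were lower. FHL also belongs to the low-oxygen list, where it had the lowest mean in submerged wild type. BGLU25, a beta-glucosidase, showed the same order, with 234, 210.0 and 350.2 in submerged ago1-27, against 268, 254 and 199 in ago1-27 in the dark, and 221, 207 and 336 in submerged wild type, against 1449, 1041 and 1085 in wild type in the dark (difference 2.36 ± 0.33, adjusted p = 0.0154). AT4G12500, a hybrid proline-rich lipid transfer protein, was high in submerged wild type alone, with 149, 62.9 and 82.2 in submerged ago1-27, against 121, 231 and 139 in ago1-27 in the dark, and 1691, 3196 and 1092 in submerged wild type, against 167, 238 and 244 in wild type in the dark (difference -3.86 ± 0.56, adjusted p = 0.0157).

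The interaction was called under all alternatives for AT2G05540 alone of the 10 named genes. Without wild-type submerged replicate 1 the other 9 missed the threshold, with adjusted p from 0.0523 for FHL to 0.14 for AT4G12490, and the number of such calls was 5 without that array and 726 without wild-type dark replicate 1.

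**Figure D5:**
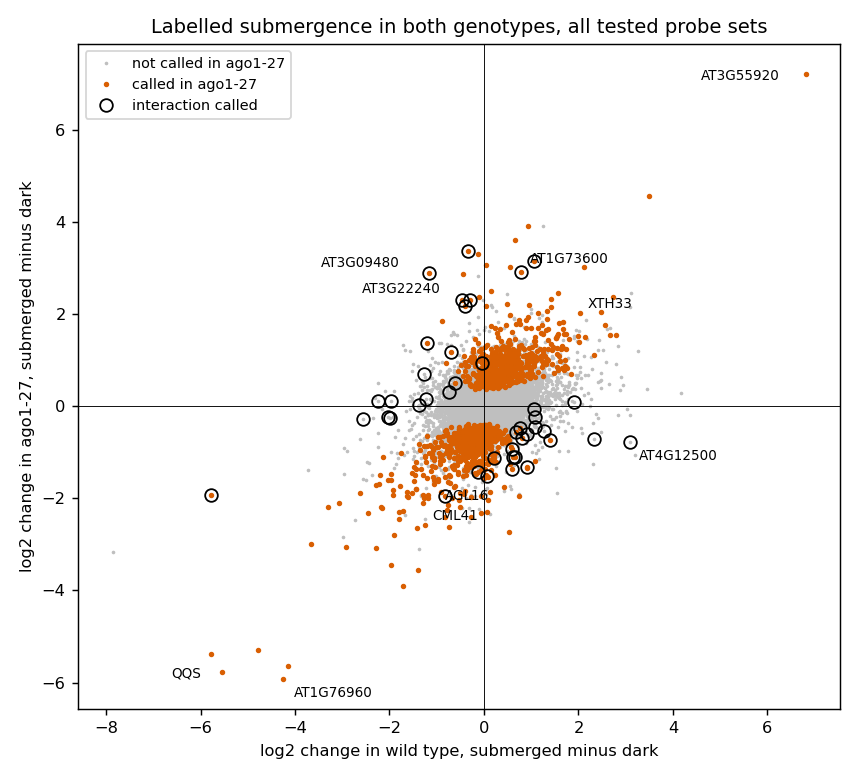
Log2 change with labelled submergence in wild type (horizontal) and in ago1-27 (vertical) for 14812 probe sets. Orange points were called in ago1-27 (1241), and black circles mark the 42 whose change differed between genotypes; the ago1-27 calls lie mostly in the quadrants where both genotypes have the same sign (80.98%).

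Beyond the lists, the set of 129 genes called under every setting held others that were named after their values were seen. MT1C, a metallothionein, had 2808, 3047 and 5914 in submerged ago1-27, against 1655, 1480.0 and 1474 in ago1-27 in the dark (log2 change 1.27 ± 0.24, adjusted p = 0.00861). IDH-VI, an isocitrate dehydrogenase of the mitochondrion, had 293, 393 and 491 in submerged ago1-27, against 180.1, 187 and 206 in ago1-27 in the dark (log2 change 1.01 ± 0.19, adjusted p = 0.00888), and the carboxypeptidase-like gene scpl50 had 623, 879 and 821 in submerged ago1-27, against 276, 182 and 262 in ago1-27 in the dark (log2 change 1.70 ± 0.23, adjusted p = 0.00138). All 3 were higher on every submerged array. Among the falls, RING1 had 1309.9, 2128 and 865 in submerged ago1-27, against 4592, 5481 and 5993 in ago1-27 in the dark (3.97-fold lower, log2 change -1.99 ± 0.25, adjusted p = 0.00105), with no overlap between the groups. The wild-type log2 change was -0.00051 for IDH-VI, 1.15 for scpl50 and -1.19 for RING1, and the difference between genotypes was not called for any of the 3.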

How the data were processed

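Total leaf RNA was amplified and biotin-labelled from the 3' end for 12 ATH1 arrays, per the labels. The authors deposited 1 signal intensity per probe set and array. It came from MAS5, of no stated version, per the submitters' processing notes. Every array has a 2% trimmed mean of 500, and no raw probe values or detection calls were used here. Of 22810 probe sets, 13513 name 1 gene in the annotation supplied (13436 matched RefSeq, TAIR10.1), and values of others are not named. Coordinates served only to order genes along the chromosomes, and promoter motifs and sequences were not analysed.

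A filter kept 14812 probe sets that passed the 40th percentile of their array on 3 or more arrays, and dropped 64 controls. Their log2 signals, without a pseudocount, entered a limma 3.58.1 model (R 4.3.3) of 4 group means, moderated with a variance trend (8 residual and 4.61 prior degrees of freedom). Contrasts were submergence in ago1-27, in wild type, and their difference. Errors of signals are standard deviations, and 3 arrays a group limit the precision. Replicate numbers are not said to mark a shared batch, and the main model did not pair the arrays by them. Of 3 same-numbered ago1-27 pairs 2 had a residual correlation above 0.1 (range -0.18 to 0.35), as had 8 of 18 same-numbered pairs in all. Whether the numbers pair the arrays is left undecided by these values.

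The text names, among calls on 1-gene probe sets, the 15 largest rises and 15 largest falls without overlap, up to 4 called members of each list, a set of low-oxygen, microRNA target and silencing genes, and the 10 largest called genotype differences. The comparison, lists and rule were chosen with earlier results of these data known. Each listed gene is represented by its brightest probe set. The alternatives tried changed the filter, scaling, floor, pseudocount, variance trend, array weights, replicate block and arrays used. The code was tested on simulated data.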

Additional observations from a re-analysis of the deposited data

Results flagged for a closer look

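In 10 named genes the change with labelled submergence differed between the genotypes by a test of the difference itself, the largest among those of the 42 such calls that name 1 gene. The values are the log2 change in ago1-27 minus that in wild type. The difference was 4.06 for AT3G09480, 3.72 for AT2G20560, 2.60 for AT3G22240, 2.56 for AT5G46230, 2.36 for BGLU25, 2.12 for AT1G73600 and 2.08 for FHL. It was -2.15 for AT2G05540, -3.03 for AT4G12490 and -3.86 for AT4G12500. AT5G46230 had signals of 132, 171 and 144 in submerged ago1-27, against 63.5, 51 and 58.8 in ago1-27 in the dark, and 103, 75.2 and 110.0 in submerged wild type, against 259.7, 147 and 269 in wild type in the dark, so its order was opposite in the genotypes (at least 1.65-fold higher in ago1-27, adjusted p = 0.0107, and log2 change -1.20 ± 0.27, adjusted p = 0.0202 in wild type). Its ago1-27 dark arrays were all under the low-signal limit, so the size of its difference is uncertain. AT4G12490 had 476, 288 and 266 in submerged ago1-27, against 405, 1036 and 379 in ago1-27 in the dark, and 2439, 4265 and 1620.0 in submerged wild type, against 486, 569 and 483 in wild type in the dark. Its groups overlapped in ago1-27 and did not in wild type. AT3G09480 and AT2G20560 were dim in both ago1-27 groups, and the size of their difference is uncertain too.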

How the results depend on the processing

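The 1241 calls in ago1-27 were 943 to 1450 under changes of filter, scaling, floor, pseudocount or variance trend, 1082 from the 6 ago1-27 arrays alone and 2701 with array weights. Leaving out 1 array gave 346 to 1862 calls, and 206 to 486 of at least 2-fold (405 with all arrays). With the replicate number as a block 1179 were called, 1060 of them among the 1241. Equal numbers are not said to mark a shared batch, so what this fit says of single calls is uncertain. Without the 2 arrays that stand apart, a choice made after seeing the data, 1550 were called. Centring on the tested probe sets, also added later, gave 1287 calls, 41.5% of them higher. The 42 called differences between genotypes were 78 with the stricter filter, 14 with median centring, 83 with a floor, 26 without a variance trend, 1798 with array weights and 1200 without the 2 arrays, and 5 to 726 without 1 array. The wild-type calls were 1048, but 4419 with array weights, 3872 without the 2 arrays and 322 to 2506 without 1 array. Of 58 named genes called in ago1-27, 27 kept their call under every alternative, 31 lost it under at least 1, and none turned its direction. Of 31 list medians 9 changed sign under at least 1 alternative. The most named calls, 26, were lost without ago1-27 dark replicate 2. Signals under the arrays' 40th percentile, in both groups for 15 calls and in 1 for 63, allow a bound or no fold. The cause of these shifts was not tested.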

Other observations

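Calls were counted along the chromosomes. In windows of 50 tested genes in RefSeq order, a division made after the data were seen, a median of 6% of genes were called over 155 windows, and 7.70% of all genes in them. The highest share was 20%, in the window from AT3G29140 to AT3G44280, with 3 genes higher and 7 lower in submerged ago1-27, and the next highest was 18%. The named falls AT3G29140 and AT3G29120 lie at or next to that window by locus number, as does QQS (AT3G30720). No test was made of this spread.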
